A study of Mus musculus with 12 samples.

Results

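The transcripts followed here are 31 genes by which microglia are recognised and through which they sense, bind and digest material in the brain. They were chosen by name, as microglial markers, complement C1q chains and phagocytic receptors with their signalling partners, and all 31 were found by Entrez ID among the 27179 gene IDs of the count table. RNA came from the hippocampus of 12 mice at 3 months of age, of which 6 were wild type (WT) and 6 were heterozygous for the 6R allele of Nell-1 (Nell-1+/6R, also called mutants here), with the sexes split 3 to 3 in both genotypes. This allele is a loss-of-function allele, and mice that carry it on both chromosomes die at birth, so the mutants keep 1 intact copy in every cell of the body and the WT mice are littermates. The labels name no treatment and no sorting of cells. Each value is therefore a level in whole hippocampal tissue, where fewer microglia and less RNA per microglial cell cannot be told apart.

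Microglia are the resident macrophages of the brain parenchyma. They enter the embryonic brain from the yolk sac, depend on signals through the CSF1 receptor, and are set up by transcription factors such as PU.1, IRF8 and SALL1. In the hippocampus they survey synapses with mobile processes, sense nucleotides and neuronal fractalkine, and remove synapses and dying cells with the help of complement, TREM2 and MERTK. Most of the 31 genes are also used by other macrophages, and some, such as Mertk in astrocytes, by other brain cells.

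Sequencing gave between 10834905 and 16016317 counted reads per mouse, and all 31 genes passed the filter on low values, as did 17937 genes in all. The RNA carried the marks of microglia in every library: the defining genes Cx3cr1, P2ry12, Tmem119 and Csf1r each had at least 338 reads in each mouse, whereas of the 12 monocyte and neutrophil genes only Fn1, which is also made by other brain cells, had over 9 reads in any mouse, and of the 12 lymphocyte genes only Lck (14 to 41 reads), with Ly6g and Ms4a1 at 0 throughout. Other macrophages were present too, with 16 to 75 reads of the border macrophage gene Mrc1. Nell1 itself was at 36.5 ± 4.55 CPM (SD, n = 6), a unit of reads relative to the TMM-normalised library total, in WT and at 19.1 ± 1.77 CPM (SD, n = 6) in mutants, without overlap. By edgeR's quasi-likelihood F test with sex as a covariate, the log2 fold change of Nell1 was -0.93 ± 0.0803 (SE) and its Benjamini-Hochberg adjusted p was 0.00015, so that the labels of the genotypes held in each mouse. No pair of libraries agreed within sampling noise. The labels do not give litters or days of dissection, and the numbers of the mice were not taken as pairs across groups.

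The stretches just upstream of the start sites are given here because PU.1, the product of the member Spi1, is known to bind purine-rich PU boxes near the starts of many myeloid genes. RefSeq windows on GRCm38.p6, from 250 bases before to 50 bases after a start site, were given for 24 of the 31 genes; Csf1r, Spi1, C1qa, Tmem119, Gpr34, Tyrobp and Selplg had none. The letters GAGGAA, read on both strands, occurred in the windows of 16 of these 24 genes (66.7%) and of 8446 of the 27025 genes with a window (31.3%). In the last 60 bases before a start they occurred for 9 of the 24 genes and for 7.0% of all genes. The longer form GAGGAAGT, which contains the former, was found in 5 of 24 genes against 3.7% of all, the letters TATAAA in 5 of 24 against 15.7%, and the composite of an ETS and an IRF element in 1 of 24 against 3.2%. The 24 genes had 31 windows, since some have several starts, and 14 of the 31 starts lay inside the RefSeq gene, so that some or all of the bases before them are within it. In 25 of 31 windows the bases after the start were found in a GENCODE transcript of these genes. Of the 17 genes with a window at the outer end of the gene, 9 had GAGGAA there, and the share of all genes was not restricted in that way. A match describes the letters and not a bound site, and no binding was measured. The 4 stretches below hold the 250 bases before the start, 5′ to 3′ on the strand of the gene, with GAGGAA and its reverse complement in capitals. C1qb and C1qc, neighbours on chromosome 4 that varied most alike among known partners, lie at chr4:136886201-136886450 and chr4:136892915-136893164, both on the minus strand, with the match 30 and 193 bases before the start, the start of the C1qc window being 22 bases inside the RefSeq gene. Trem2, with the smallest p for genotype, lies at chr17:48346151-48346400 on the plus strand with the match 40 bases before the start. P2ry12, at chr3:59262986-59263235 on the minus strand, is shown as a gene without the letters in its window.
C1qb: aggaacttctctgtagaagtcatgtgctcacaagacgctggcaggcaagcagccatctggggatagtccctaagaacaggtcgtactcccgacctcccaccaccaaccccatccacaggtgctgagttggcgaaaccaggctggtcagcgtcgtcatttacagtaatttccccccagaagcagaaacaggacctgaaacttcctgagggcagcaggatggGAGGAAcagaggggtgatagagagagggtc
C1qc: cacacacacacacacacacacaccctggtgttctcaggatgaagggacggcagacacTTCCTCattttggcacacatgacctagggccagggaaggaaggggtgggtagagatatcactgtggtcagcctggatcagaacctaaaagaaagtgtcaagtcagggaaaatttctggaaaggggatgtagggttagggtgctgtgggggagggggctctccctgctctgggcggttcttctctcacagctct
Trem2: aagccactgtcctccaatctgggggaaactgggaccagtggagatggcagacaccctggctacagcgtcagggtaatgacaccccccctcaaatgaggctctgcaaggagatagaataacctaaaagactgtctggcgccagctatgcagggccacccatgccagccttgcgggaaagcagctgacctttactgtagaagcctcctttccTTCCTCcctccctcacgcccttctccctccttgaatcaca
P2ry12: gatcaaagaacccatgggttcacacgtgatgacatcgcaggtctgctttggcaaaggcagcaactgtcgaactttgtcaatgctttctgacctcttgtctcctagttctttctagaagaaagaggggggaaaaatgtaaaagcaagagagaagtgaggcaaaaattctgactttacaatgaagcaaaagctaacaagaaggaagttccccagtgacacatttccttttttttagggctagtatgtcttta

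Per length, C1qa, Ctss, C1qc and Csf1r stood at the top and Spi1, Irf8 and Ptprc at the bottom. Levels between genes were compared as CPM per kilobase of exon (RPKM) over all 12 mice. C1qa, a chain of the complement initiator C1q that tags synapses, was highest with 51.4 ± 5.83 RPKM (SD, n = 12). Ctss, a lysosomal protease of antigen-presenting cells, followed with 43.7 ± 4.45 RPKM, and the ranges of the top 4 genes (C1qa, Ctss, C1qc and Csf1r) overlapped from each to the next. Csf1r, the receptor for CSF1 and IL-34, was at 33.3 ± 2.13 RPKM and was above Cx3cr1 in 12 of 12 mice, with no overlap of their ranges. From Cx3cr1, the fractalkine receptor, at 18.3 ± 1.31 RPKM down to Irf8 at 1.38 ± 0.35 RPKM, each gene overlapped in range with the next in order. Spi1, which encodes PU.1, was at 1.93 ± 0.434 RPKM. Ptprc, which encodes the leukocyte antigen CD45, was lowest with 0.444 ± 0.116 RPKM and below Irf8 in every mouse. The position of Olfml3, an extracellular olfactomedin protein of microglia, depends on the gene model, since its level was 12.04 RPKM by exon length within the RefSeq gene and 3.83 RPKM by the longest annotated transcript.

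Partners of one complex were not equal in RNA. C1q is assembled from equal numbers of A, B and C chains, yet the level per length of C1qa was 6.01 ± 0.949 times that of C1qb (SD of the ratio over 12 mice), and that of C1qc was 4.03 ± 0.407 times that of C1qb. The C1qa ratio ranged from 4.82 to 8.28, so that C1qb was the lowest chain in every mouse. Tyrobp, the adaptor DAP12 through which TREM2 signals, was at 1.80 ± 0.204 times the level of Trem2. P2ry12, the ADP receptor by which microglial processes are drawn to injury, was at 3.01 ± 0.519 times the level of its neighbour P2ry13. None of these ratios moved with genotype beyond its spread: C1qa over C1qb was 5.83 ± 0.391 in WT and 6.19 ± 1.32 in mutants (SD, n = 6 each), and Tyrobp over Trem2 was 1.89 ± 0.216 and 1.71 ± 0.159. No test was run on the ratios. Some reads cannot be assigned to one gene with certainty. The sources used here do not give the strand setting of the counting, which bears on genes with a partner on the opposite strand. P2ry12 and P2ry13 lie inside Med12l and Gpr34 inside Cask on the opposite strand, Csf1r shares 14.3% of its 50-base stretches with the opposite gene Hmgxb3, and Slco2b1 shares 5.89% with other genes, mostly the antisense Gm15635. Whatever the strand setting, Fcgr3 shares 9.58% with its relative Fcgr2b, and Itgam 66.3% with the overlapping model Gm49368 on the same strand.

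**Figure D1:**
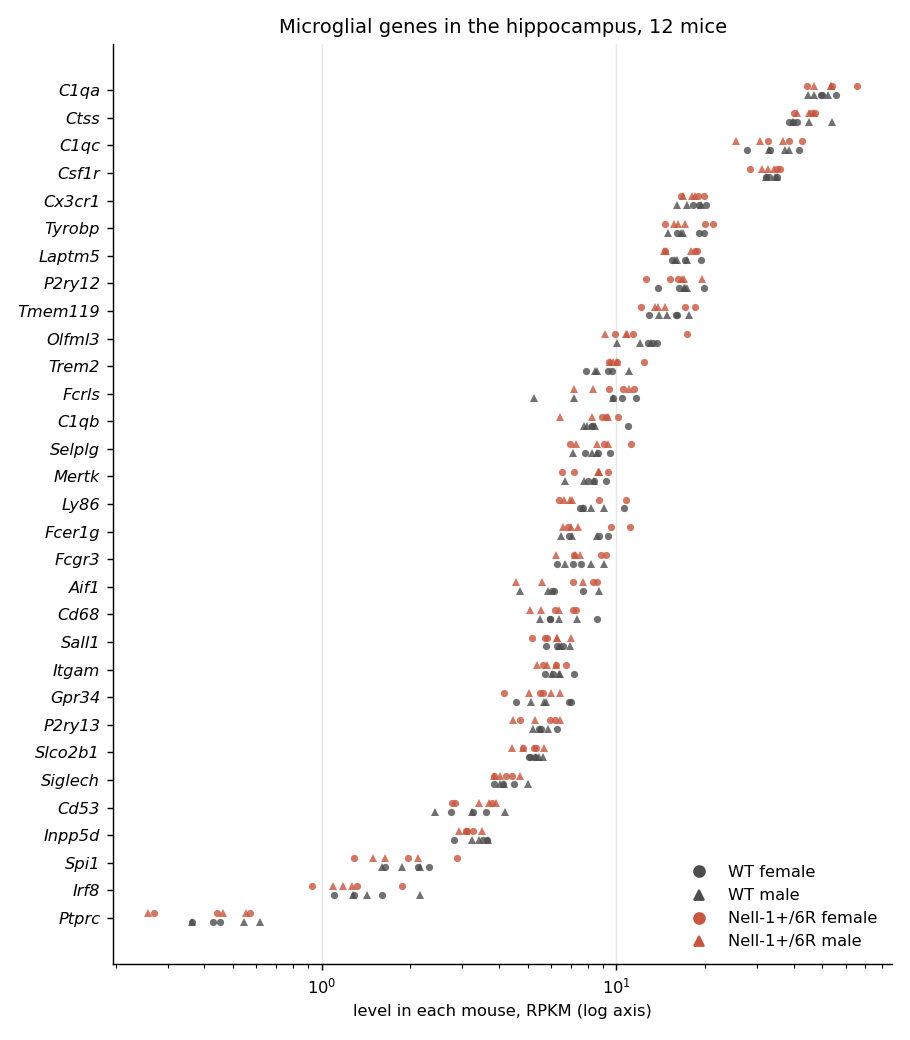
Level of each of the 31 genes in each of 12 mice, in RPKM on a log axis, with circles for females, triangles for males, grey for WT and red for Nell-1+/6R. Genes are ordered by their mean, from C1qa (51.4 RPKM) to Ptprc (0.444 RPKM), and the red and grey points overlap in every row.

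The main comparison asked whether microglial transcripts differ between mutant and WT hippocampus. No gene among the 31 passed the test: 0 reached an unadjusted p under 0.05 by edgeR's quasi-likelihood F test, and 0 did by DESeq2 or limma-voom. Among all 17937 genes tested, 584 did so (3.26%). With a fold change above 1.5 as a further condition, as in the thresholds of the study, 0 of 31 and 1.46% of all genes passed. After Benjamini-Hochberg adjustment over all genes the counts were 0 and 7 (0.039%), and the adjusted p of each of the 31 genes was 1.00. In 0 of 31 did the 6 mutants lie apart from the 6 WT mice, against 0.151% of all genes. Taken over the genes, 12 were higher in mutants and 19 lower, and the median log2 change was -0.03 beside 0.00 over all genes tested. Several signs turned with single mice left out, as for Cx3cr1 (-0.05 to 0.02), Tmem119 (-0.10 to 0.04), C1qc (-0.12 to 0.04) and Cd53 (-0.03 to 0.14). The counts by direction, here and by role below, therefore depend on single mice. The summed level of the 31 genes was 794 ± 29.1 CPM in WT and 786 ± 49.5 CPM in mutants (SD, n = 6 each), and ranged from 761 to 831 and from 728 to 839 CPM.

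The data were precise enough to bound the difference for most of these genes. The 95% interval of the fold change lay within 1.5-fold in both directions for 29 of 31 genes, the exceptions being Irf8 and Ptprc. Csf1r, with 1419 to 2038 reads per mouse, had the narrowest interval: its log2 fold change was -0.03 ± 0.0610 (SE; 95% interval -0.16 to 0.10). Cx3cr1 was nearly as tight at -0.02 ± 0.0625 (-0.15 to 0.11). Ptprc, with 18 to 42 reads per mouse, could not be bounded so closely, at -0.11 ± 0.226 (-0.59 to 0.38).

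**Figure D2:**
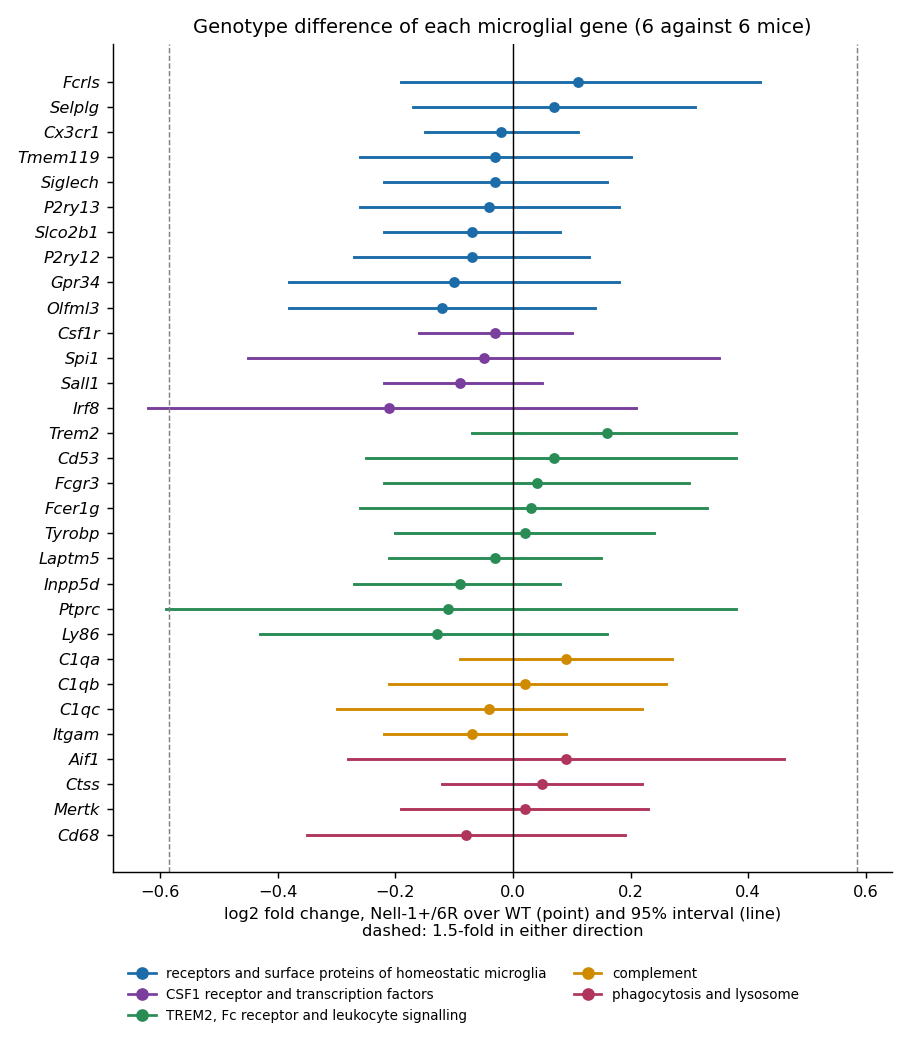
log2 fold change of each gene between 6 Nell-1+/6R and 6 WT mice (points) with its 95% interval (lines), coloured and grouped by role, with dashed lines at 1.5-fold. Every interval includes 0, and those of Irf8 (-0.62 to 0.21) and Ptprc (-0.59 to 0.38) reach past the lower dashed line.

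Among the receptors and surface proteins of homeostatic microglia, 2 of 10 were higher in mutants and 8 lower, with log2 fold changes from -0.12 to 0.11 and none past the test. Cx3cr1 was at 60.5, 70.2 and 75.5 CPM (lowest, median and highest of 6 WT mice) and at 62.4, 68.7 and 74.4 CPM in mutants. P2ry12 was at 33.8, 41.7 and 48.4 CPM in WT and at 30.7, 40.2 and 47.6 CPM in mutants. Tmem119, a transmembrane protein that sets microglia apart from blood-derived macrophages, was at 27.3, 32.7 and 37.5 CPM and at 25.8, 30.2 and 39.4 CPM. In all 3 the ranges covered each other almost fully. Olfml3 had the lowest fold change of the group, -0.12 ± 0.122, with 17.5, 22.4 and 23.8 CPM in WT and 15.9, 18.8 and 30.1 CPM in mutants. The 30.1 CPM came from female Nell-1+/6R replicate 2, and without that mouse the log2 fold change was -0.25 with an unadjusted p of 0.0146 and an adjusted p of 1.00 by edgeR. Over all omissions of 1 mouse the fold change of Olfml3 ranged from -0.25 to -0.05, with unadjusted p from 0.0146 to 0.667 by edgeR. Fcrls, an Fc receptor-like scavenger receptor, had the highest fold change of the group, 0.11 ± 0.140, which ranged from 0.02 to 0.20 without single mice. P2ry13, Gpr34 (a lysophosphatidylserine receptor), Siglech, Selplg (the selectin ligand PSGL-1) and Slco2b1 (an organic anion transporter) were between -0.10 and 0.07.

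The CSF1 receptor and the transcription factors had fold changes below 0 in 4 of 4 cases, none past the test. Without female Nell-1+/6R replicate 3, Csf1r was at 0.01 and Spi1 at 0.06, and Spi1 was at 0.01 without male WT replicate 2, so that the sign of both turned with single mice. Csf1r was at 125, 131 and 136 CPM in WT and at 110.0, 129.8 and 139 CPM in mutants. Sall1, a zinc-finger repressor that keeps the microglial programme in place, was at 30.3, 33.9 and 36.5 CPM and at 27.2, 31.8 and 36.9 CPM, with a log2 fold change of -0.09 ± 0.0639 and an unadjusted p of 0.196 by edgeR. Irf8, an interferon regulatory factor needed for microglial maturation, was at 3.78, 4.67 and 7.42 CPM and at 3.19, 4.21 and 6.44 CPM. Its log2 fold change of -0.21 ± 0.193 was the lowest of the 31, and it rested on 45 to 90 reads per mouse. It was -0.07 without male WT replicate 1, the highest WT mouse, -0.13 without female Nell-1+/6R replicate 3 and -0.37 without female Nell-1+/6R replicate 2, with none past the test. Spi1 was at 3.25, 4.06 and 4.71 CPM and at 2.62, 3.66 and 5.87 CPM, with a log2 fold change of -0.05 ± 0.186.

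In the group of TREM2, Fc receptor and leukocyte signalling, 5 of 9 were higher and 4 lower, from -0.13 (Ly86, a partner of the toll-like receptor relative RP105) to 0.16 (Trem2). Trem2, a lipid-sensing receptor that drives the response to damage, was at 9.01, 10.3 and 12.6 CPM in WT and at 10.8, 11.3 and 14.2 CPM in mutants. Its log2 fold change of 0.16 ± 0.104 had the smallest p of the 31, 0.156 unadjusted by edgeR. Of the mutants the lowest was above the WT median, but 2 of 6 WT mice, at 11.04 and 12.6 CPM, exceeded that lowest value. Without male WT replicate 1, which had the highest WT value, the log2 fold change of Trem2 was 0.22 with an unadjusted p of 0.0336 and an adjusted p of 0.999 by edgeR. Over all omissions of 1 mouse the fold change of Trem2 ranged from 0.09 to 0.22, with unadjusted p from 0.0336 to 0.385 by edgeR. Its adaptor Tyrobp was at 8.46, 9.43 and 11.2 CPM and at 8.28, 9.39 and 11.98 CPM, a log2 fold change of 0.02 ± 0.104. The lipid phosphatase Inpp5d, which restrains signalling downstream of TREM2, was at 14.0, 17.3 and 18.3 CPM and at 14.6, 15.5 and 17.4 CPM, a log2 fold change of -0.09 ± 0.0813. Fcer1g, the shared signalling chain of Fc receptors, and Fcgr3, a low-affinity IgG receptor, were at 0.03 ± 0.139 and 0.04 ± 0.121. Laptm5 (a lysosomal transmembrane protein), Cd53 (a tetraspanin) and Ptprc were at -0.03, 0.07 and -0.11.

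Of the complement and phagocytosis genes 5 of 8 were higher in mutants and 3 lower, none past the test. C1qa was at 46.5, 51.7 and 57.8 CPM in WT and at 46.3, 55.7 and 68.2 CPM in mutants, a log2 fold change of 0.09 ± 0.0850. That fold change ranged from 0.02 to 0.15 without single mice. C1qb was at 8.44, 8.99 and 11.9 CPM and at 7.03, 9.89 and 11.001 CPM, a log2 fold change of 0.02 ± 0.110. C1qc was at 29.8, 37.9 and 44.9 CPM and at 27.3, 37.3 and 45.8 CPM, a log2 fold change of -0.04 ± 0.122. Itgam, the alpha chain of complement receptor 3 that recognises C3 fragments on synapses, had a log2 fold change of -0.07 ± 0.0730. The groups overlapped for each of these genes. Mertk, a receptor for phosphatidylserine-bridging ligands, was at 28.9, 35.3 and 39.8 CPM and at 28.1, 37.4 and 40.3 CPM, a log2 fold change of 0.02 ± 0.0985. Aif1, which encodes the actin-binding stain target IBA1, was at 0.09 ± 0.171, Ctss at 0.05 ± 0.0788, and Cd68, a lysosomal glycoprotein, at -0.08 ± 0.124.

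Whether the genotype acts alike in both sexes was asked in a model of the 4 groups. In females 0 of 31 genes reached an unadjusted p under 0.05 by edgeR, beside 2.84% of all genes, and in males 0 of 31, beside 3.37%. In females 19 of 31 fold changes were above 0, with a median of 0.00, and in males 10 of 31, with a median of -0.06. The difference between the sexes was itself tested: 0 of 31 passed, beside 3.09% of all genes, and the smallest adjusted p was 0.987. Fcgr3 came nearest. It was at 8.49 to 10.2 CPM in female WT, 9.70 to 12.4 CPM in female Nell-1+/6R, 9.05 to 12.2 CPM in male WT and 8.39 to 10.1 CPM in male mutants. Its log2 fold change was 0.26 ± 0.152 in females and -0.19 ± 0.154 in males, a difference of 0.46 ± 0.216 with an unadjusted p of 0.0548. Mertk leaned the other way, at -0.15 ± 0.127 in females and 0.19 ± 0.128 in males, a difference of -0.35 ± 0.181 with an unadjusted p of 0.0772 by edgeR. The 3 male mutants were at 37.4 to 37.7 CPM for Mertk, all above the male WT mice at 28.9 to 36.0 CPM, while the female groups overlapped. The male groups lay apart for 3 of 31 genes (Mertk, Irf8 and Ly86), beside 10.4% of all genes, and the female groups for 0, beside 6.0%. Ly86 was at 7.70 to 9.05 CPM in male WT and at 6.61 to 7.03 CPM in male Nell-1+/6R. Irf8 had the lowest male fold change, -0.46 ± 0.268, with 4.39 to 7.42 CPM in male WT and 3.75 to 4.36 CPM in male mutants, and was at 0.03 ± 0.265 in females. Over all omissions of 1 mouse the male fold change of Irf8 ranged from -0.59 to -0.21, the latter without male WT replicate 1.

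With all mice 0 of 31 genes passed in females, in males or for the difference, but some passed without single mice. The omissions listed here are those after which a gene passed, and others weakened the same genes. Over all omissions of 1 mouse the difference ranged from -0.51 to -0.24 for Mertk and from 0.37 to 0.56 for Fcgr3. It was -0.52 to -0.22 for Gpr34, 0.25 to 0.55 for C1qc and 0.11 to 0.40 for Tmem119. The share of all genes passing in these fits is not given here. Without female Nell-1+/6R replicate 3, the difference between the sexes was -0.51 for Mertk (unadjusted p 0.00348), 0.56 for Fcgr3 (0.0215) and 0.40 for Tmem119 (0.0312), each with an adjusted p of 0.479 by edgeR, and the female fold changes were 0.37 for Fcgr3 (0.0366) and -0.32 for Mertk (0.0105). Without female WT replicate 2, the female fold changes were -0.30 for P2ry12 (unadjusted p 0.0316) and -0.45 for Gpr34 (0.0164), and the differences were -0.52 for Gpr34 (0.0332) and 0.55 for C1qc (0.0272). Without female Nell-1+/6R replicate 2, Olfml3 was at -0.31 in females (0.0381). The difference of Fcgr3 was 0.52 without female WT replicate 1 (0.0486) and 0.56 without male WT replicate 3 (0.0178), that of Mertk was -0.42 without male WT replicate 2 (0.0494), and that of C1qc was 0.51 without male Nell-1+/6R replicate 2 (0.0404). In males, Fcrls was at 0.51 without male WT replicate 3 (0.0251) and Slco2b1 at -0.24 without male Nell-1+/6R replicate 2 (0.0256). No adjusted p of a member fell below 0.356 in any of these fits.

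**Figure D3:**
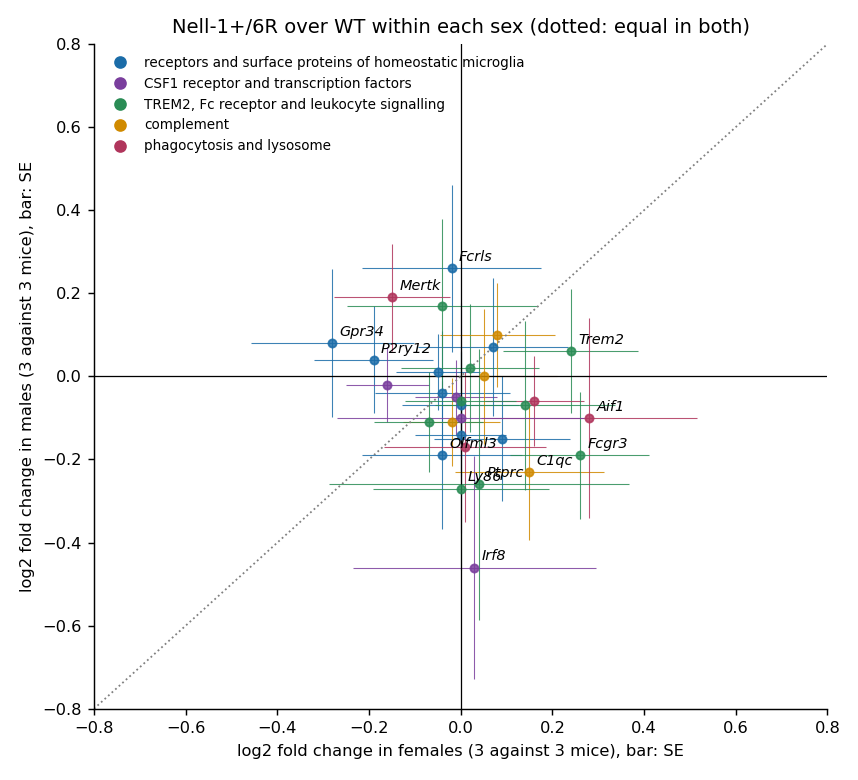
log2 fold change of each gene between Nell-1+/6R and WT females (horizontal axis) and males (vertical axis), with SE bars and colours by role. Points above the dotted line, such as Mertk (-0.15 and 0.19), had the higher fold change in males, and points below it, such as Fcgr3 (0.26 and -0.19) and Irf8 (0.03 and -0.46), the higher one in females.

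Between female and male hippocampus 2 of these genes passed the unadjusted test. By edgeR with genotype as a covariate, 1 of 31 genes was higher in females at an unadjusted p under 0.05, beside 2.85% of all genes, and 1 was lower, beside 1.87%. With a fold change above 1.5, 0 of 31 passed (1.35% of all genes), and 0 after adjustment (0.0335%), also by DESeq2 and limma-voom. In no member did the 6 females lie apart from the 6 males (0.173% of all genes). Fcrls was higher in females, with 21.5, 23.9 and 26.6 CPM (lowest, median and highest of 6) against 11.965, 17.7 and 25.04 CPM in males. Its log2 fold change of female over male was 0.38 ± 0.140 (95% interval 0.08 to 0.68), with an unadjusted p of 0.0160 and an adjusted p of 0.868. The spread of Fcrls was wider in males, with 11.965 CPM in male WT replicate 1 and 25.04 CPM in male Nell-1+/6R replicate 2. Sall1 was lower in females, with 27.2, 30.5 and 34.8 CPM against 33.0, 33.9 and 36.9 CPM in males, a log2 fold change of -0.16 ± 0.0639 (95% interval -0.30 to -0.02), an unadjusted p of 0.0255 and an adjusted p of 0.868.

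The call of Fcrls held at an unadjusted p under 0.05 without each mouse in turn (0.00439 to 0.0402), with a log2 fold change from 0.28 to 0.47. That of Sall1 was lost without female WT replicate 1 (-0.14, unadjusted p 0.0568), or female Nell-1+/6R replicate 2 (-0.13, 0.0637), or else male WT replicate 2 (-0.15, 0.0501) or male Nell-1+/6R replicate 2 (-0.14, 0.0619), and among WT mice alone it was -0.09 (0.350). Conversely, other genes passed without single mice. The share of all genes passing in those fits is not given here, so the counts have no background beside them. Without female Nell-1+/6R replicate 3, which had the lowest mean of the 31 genes, 6 passed, with Olfml3 at 0.31 (0.0172), Tyrobp at 0.25 (0.0175), Fcer1g at 0.35 (0.0213) and C1qa at 0.16 (0.0483) besides Fcrls and Sall1. Without male WT replicate 1, Olfml3 was at 0.28 (0.0404), Aif1 at 0.37 (0.0260) and Fcer1g at 0.34 (0.0311). Without female WT replicate 3, P2ry12 was at -0.23 (0.0111) and Fcer1g at 0.35 (0.0261). Omitting male Nell-1+/6R replicate 2 put C1qb at 0.25 (0.0424), and without female Nell-1+/6R replicate 1, Olfml3 was at 0.28 (0.0492). With all mice kept, Olfml3 also passed with upper-quartile scaling (0.27, 0.0497) and with no filter on low values (0.25, 0.0476). With all mice, the 4 complement genes were each higher in females, from 0.05 to 0.21, with none past the test.

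**Figure D4:**
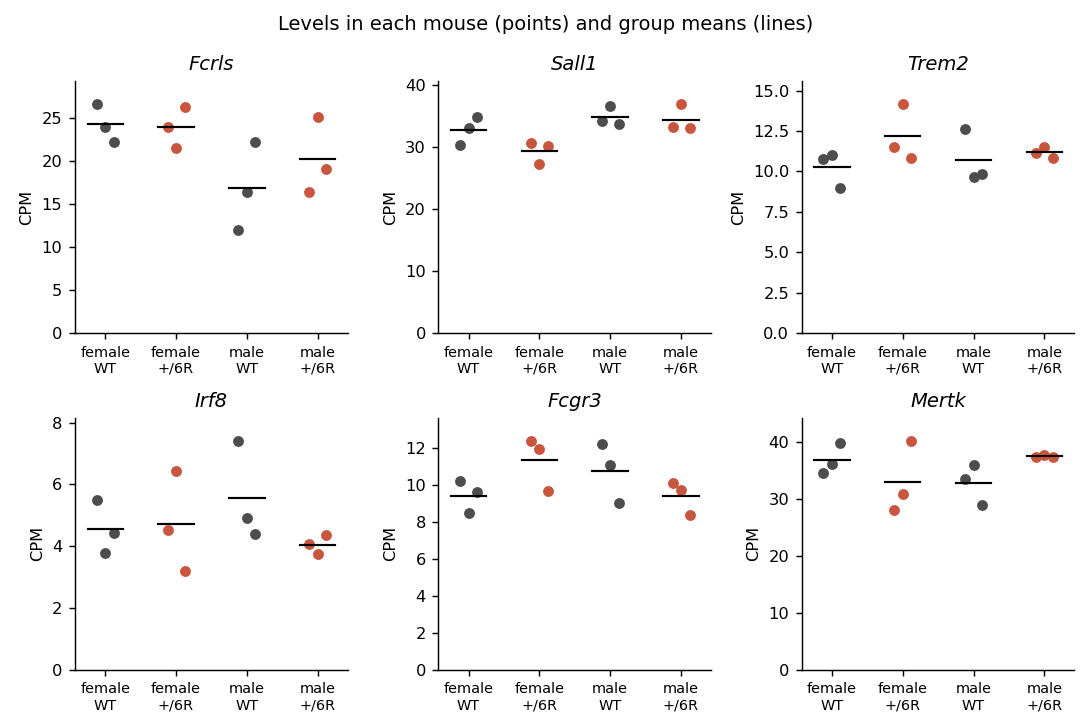
CPM of 6 genes in each mouse (points), with the mean of each group of 3 (lines): Fcrls and Sall1, which passed an unadjusted p of 0.05 between the sexes, Trem2, with the smallest p for genotype, Irf8, with the lowest genotype fold change, and Fcgr3 and Mertk, with the smallest p for the difference of genotype effects between the sexes. Fcrls is lowest in male WT replicate 1 (11.965 CPM), and the male mutants are within 37.4 to 37.7 CPM for Mertk.

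Genes that work with these 31 were counted in further lists, to be read beside the 2.2% of all genes that were lower in mutants and the 1.06% that were higher at an unadjusted p under 0.05. All lists were chosen with earlier results of these data known, so such counts are no independent support. Of 39 other microglial genes tested, such as the integrin chain Itgb2, 0 passed an unadjusted p under 0.05 by edgeR, with a median log2 fold change of -0.03. Of 16 genes of TREM2 and DAP12 signalling, 7 of them also in the former list, 0 passed, with a median of -0.01. Of 15 ligands and receptors of the CSF1R, TGF-beta and neuron-microglia axes, 2 were lower. These were Pros1, which bridges phosphatidylserine to MERTK, at -0.29 ± 0.113 (unadjusted p 0.0246), and the TGF-beta receptor Tgfbr2, at -0.25 ± 0.105 (0.0328). Of 14 interferon-response genes 0 passed, and of 13 genes of inflammatory cytokines only Il1b, at 0.0721 CPM in WT and 0.215 CPM in mutants, which corresponds to a few reads per mouse. Of 22 genes of disease-associated microglia, 3 were lower: Lyz2 at -0.60 ± 0.228, Ccl6 at -0.57 ± 0.249 and Cst7, near its detection limit, at -1.30 ± 0.575. Without single mice between 0 and 4 genes of that list were lower, with 0 without female WT replicate 1 and 1 without female Nell-1+/6R replicate 2 or without male WT replicate 1, WT replicate 3, Nell-1+/6R replicate 1 or Nell-1+/6R replicate 2. No gene of these lists passed after adjustment, each having an adjusted p of 1.00 by edgeR.

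In the complement cascade outside C1q, 3 of 17 genes were lower in mutants and 1 was higher, with a median log2 fold change of -0.18. Serping1, the C1 inhibitor, was at 11.1 ± 2.89 CPM in WT and 6.67 ± 2.72 CPM in mutants (SD, n = 6 each), which is a log2 fold change of -0.79 ± 0.212 (unadjusted p 0.00226 by edgeR). The protease gene C1s1 was at -0.57 ± 0.242. Hc, which encodes C5, was higher but at only 0.107 CPM in WT and 0.351 CPM in mutants. Without single mice 1 to 3 of the 17 were lower, with 1 left when female WT replicate 1 was omitted and 1 when female Nell-1+/6R replicate 2 was. The chains of C1q itself were between -0.04 and 0.09. 

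Among markers of macrophages at the brain's borders, 7 of 12 were lower in mutants, beside 2.2% of all genes. This list and that of fibroblasts below were chosen with earlier results of these data known, so their counts are no independent support. Genes of 1 list can also vary together and are then not separate tests. The median pairwise correlation was 0.68 for 7 fibroblast genes. All 12 genes of the list of border-associated macrophages had fold changes below 0 in mutants, the 7 at an unadjusted p under 0.05 by edgeR and 0 after adjustment, with a median log2 fold change of -0.86. Mrc1, the mannose receptor CD206, was at 3.22 ± 1.03 CPM in WT and 1.68 ± 0.682 CPM in mutants (SD, n = 6 each), which is a log2 fold change of -0.93 ± 0.265. The platelet factor gene Pf4, with only 1 to 9 reads per mouse, was at -1.32 ± 0.422, the scavenger receptor genes Stab1 at -0.29 ± 0.0966 and Cd163 at -0.82 ± 0.290. The summed level of the list ranged from 38.7 to 61.9 CPM in WT and from 29.0 to 47.1 CPM in mutants, and no defining marker was at 0 reads throughout. Genes of leptomeningeal fibroblasts moved alongside: 7 of 10 were lower, with a median of -1.01, among them Col3a1 at -1.16 ± 0.298 and Col1a1 at -0.93 ± 0.245. Without single mice, 5 to 8 of the 12 macrophage genes and 3 to 8 of the 10 fibroblast genes were lower, with the 3 found without female WT replicate 1. The summed level of the 8 choroid plexus genes spread from 43.6 to 5152.1 CPM between mice, with 5152.1 CPM in female Nell-1+/6R replicate 1 and 4635.0 CPM in male WT replicate 3, and 0 of 8 passed with all mice (median log2 fold change -0.99). Without female Nell-1+/6R replicate 1 all 8 were lower (median -2.51), and without male WT replicate 3 the median was 0.14. How far these tissues differ in amount between the dissections was not tested. Their part in the levels of Serping1 and C1s1, and of genes that border macrophages share with microglia, was not tested either.

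Markers of white blood cells were mostly at few reads. Of 12 genes of monocytes and neutrophils 6 could be tested and 1 was lower, Ccr2, at 0.237 CPM in WT and 0.0741 CPM in mutants. Of 12 lymphocyte genes 6 could be tested and 0 passed. Red cell genes were lower in 2 of 3 cases, Hba-a2 at -0.40 ± 0.159 and Alas2 at -0.45 ± 0.196. Of the brain's own cells, 1 of 8 endothelial genes was lower (Tek, at -0.33 ± 0.111), 0 of 8 oligodendrocyte and 0 of 8 astrocyte genes passed, and of 11 genes of hippocampal principal neurons Fibcd1 (0.23 ± 0.0831) and Spink8 (0.25 ± 0.104) were higher and C1ql2 (-0.33 ± 0.129) lower.

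Between the sexes, immune genes outside the 31 gave further calls, all of them unadjusted, beside the 2.85% of all genes that were higher in females and the 1.87% that were lower. Of 22 genes of disease-associated microglia 5 were higher in females, the first by p being Cd52 at 0.91 ± 0.209 and B2m, the light chain of MHC class I, at 0.31 ± 0.0786, and of 14 interferon-response genes 4 were higher, among them Isg15 at 0.51 ± 0.193 and Irf7 at 0.57 ± 0.234. Of 39 other microglial genes 2 were higher in females, the phosphatase gene Ptpn6 at 0.43 ± 0.150 and the kinase gene Syk at 0.31 ± 0.113, both of which also stand in the list of TREM2 and DAP12 signalling. Serping1 (0.50 ± 0.212), Stab1 (0.26 ± 0.0966) and Ccl4 (0.0113 CPM in males and 0.173 CPM in females) were higher in females, and Nfkbiz, an inhibitor-like regulator of NF-kappaB, was lower at -0.27 ± 0.104. The red cell genes were higher in females in 3 of 3 cases, Hbb-bs at 2.19 ± 0.463, Hba-a2 at 0.46 ± 0.160 and Alas2 at 0.48 ± 0.197. Hbb-bs rested on only 1 to 17 reads per mouse. Gja1 of astrocytes (-0.17 ± 0.0580) and Dsp of granule neurons (-0.50 ± 0.2002) were lower. No list had a gene past adjustment, the lowest adjusted p being 0.653 for Hbb-bs.

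Beyond genotype and sex, the spread of the 31 genes from mouse to mouse is described here beside the counting error. Separate mice are likely to differ by more than counting error in any gene, so an excess is no finding about these genes. With the mean of each of the 4 groups removed, the SD of log2 CPM (prior count 2) over 12 mice had a median of 0.182 over the 31 genes, where the counting error of a mean count gives 0.0998. It was above 1.5 times the counting SD for 21 genes and below it for 0. The share of all genes above that cut is not given here, so the counts describe these 31 alone. Sall1 was the steadiest, with 0.0879 against a counting SD of 0.0694, and Tmem119 was among the most variable for its depth, with 0.206 against 0.0704. The mean of the 31 genes was highest in female Nell-1+/6R replicate 2, 0.11 above its group, and lowest in female Nell-1+/6R replicate 3, 0.14 below, where only 9 of 31 genes were above the group mean.

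The genes did not vary as 1 block. The median correlation of the deviations over 465 pairs of genes was 0.21, with 65.4% of pairs positive. With the mean of the other 30 genes, Csf1r (r = 0.91), Trem2 (0.80), Cx3cr1 (0.77), Tmem119 (0.77), Spi1 (0.76) and Tyrobp (0.74) varied most closely, and Mertk (-0.58), P2ry12 (-0.52), Ptprc (-0.47), Fcrls (-0.46), Gpr34 (-0.30), Sall1 (-0.22) and Siglech (-0.11) ran against it. These values are descriptions over 12 mice that share group means and library depth. The median pairwise correlation was 0.13 without female Nell-1+/6R replicate 3 and 0.25 with male Nell-1+/6R replicate 1 left out. It was 0.97 for 7 choroid plexus genes and 0.93 for 8 oligodendrocyte genes, and for the 24 other microglial genes with a mean of at least 5 CPM it was 0.03.

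Known partners were compared in 8 pairs, each by an exact permutation of the mice within their groups (1296 arrangements, two-sided). C1qb and C1qc, chains encoded side by side, gave r = 0.87 and rho = 0.87 over 12 mice (exact permutation p = 0.0108 and 0.01003, adjusted over the 8 pairs 0.0864 and 0.0710), and r = 0.79 without the 2 mice farthest from the median of C1qb. C1qa gave r = 0.14 and rho = 0.27 with C1qb (exact permutation p = 0.606 and 0.425). With C1qc it gave 0.46 and 0.57 (exact permutation p = 0.151 and 0.0887). Trem2 and Tyrobp gave 0.67 and 0.66 (exact permutation p = 0.0934 and 0.0610), Fcgr3 and Fcer1g 0.61 and 0.79 (0.108 and 0.0177), and Csf1r and Spi1 0.78 and 0.72 (0.0579 and 0.0417). The neighbours P2ry12 and P2ry13 gave -0.08 and -0.07 (exact permutation p = 0.816 and 0.858), and Spi1 and Irf8 0.61 and 0.40 (0.143 and 0.325). Without the 2 mice farthest from the median, Csf1r and Spi1 were at r = 0.44 and Spi1 and Irf8 at 0.09, so that both rest on those mice. No pair passed after adjustment. These values are not corrected for GC content (the share of G and C bases in the transcript), with which correlations went, as described next. C1qb (57.35%) and C1qc (57.52%) are nearly equal in it, and no corrected value is given for the pairs.

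The way each gene varied went with the base composition of its transcript. Over the 31 genes, the correlation of a gene with the other 30 was higher at higher GC content, with Pearson's r = 0.65 and Spearman's rho = 0.67 across genes, which are not independent replicates. The 7 genes that ran against the rest had a median GC content of 45.6%, and the 16 genes with r of at least 0.5 had 54.8%. P2ry12 (38.6% GC) and Gpr34 (37.1%) were the lowest in GC of the 31, and C1qa (59.5%) and Tmem119 (59.1%) the highest. The same held outside microglia: over 11271 other genes with a mean of at least 5 CPM and a known GC content, r with the mean of the 31 genes and GC content correlated at 0.67, and the median r was -0.67 in the lowest and 0.67 in the highest of 4 equal bins of GC content. The 10 genes most like the mean of the 31 were Wbp2 (r = 0.988), Preb, Men1, Ttyh3, Manbal, Brk1, Txn2, Flii, Atn1 and Anapc2 (0.968), and 10.6% of the other genes had r above 0.8. In female Nell-1+/6R replicate 3 the highest of these GC bins was shifted by -0.164 and the lowest by 0.238 from the group mean (median log2), and the 15 members of higher and lower GC content by -0.27 and -0.02.

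When the trend of each mouse over GC content was removed, the order of the genes changed. P2ry12 moved from r = -0.52 to 0.68 with the other 30 genes, Gpr34 from -0.30 to 0.53 and Siglech from -0.11 to 0.39, and they joined Ctss (0.82), Cx3cr1 (0.72), Fcer1g (0.72), Cd53 (0.68) and Ly86 (0.66). Mertk (-0.50), Sall1 (-0.41), Fcrls (-0.35) and Ptprc (-0.22) still ran against the rest, now with Inpp5d (-0.13) and C1qb (-0.11). The correlation with GC content over the 31 genes was then -0.13, and the median pairwise correlation 0.16. Since the step takes out the GC trend, the loss of the former is built into it. The SD over mice of the mean deviation of the 31 genes was 0.0786 before the step and 0.0774 after it. This setting was added after seeing the data, and the part of base composition in the levels of single mice was not tested further.

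**Figure D5:**
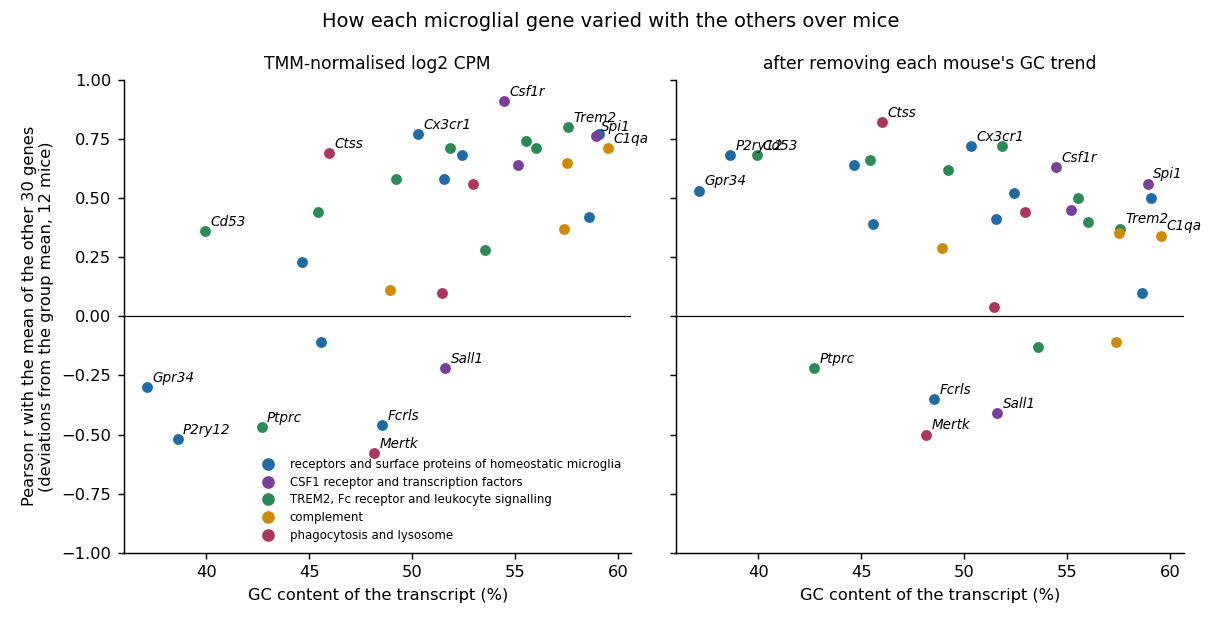
Pearson r of each gene with the mean of the other 30, over 12 mice with group means removed, against the GC content of its transcript in percent, for TMM-normalised values (left) and after removal of the GC trend of each mouse (right), coloured by role. The rise with GC content on the left (r = 0.65) is absent on the right (-0.13), where the step itself removes the trend. P2ry12 and Gpr34 lie at 0.68 and 0.53 on the right.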

How the data were processed

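Hippocampal RNA of 12 mice was sequenced as single reads. According to the supplementary methods the authors aligned the reads to mm10 with HISAT2 2.1.0 and counted them per gene with featureCounts (version 2.0.1 in the submitters' processing notes, another in the methods), and the deposited values are raw read counts per Entrez gene, neither normalized nor pooled, with 0 columns left without a mouse. Of the 27179 IDs, 25275 were matched to RefSeq symbols of GRCm38.

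The study's filter was kept (2 or more mice with 0.2 CPM or above). The genes kept were tested by edgeR 4.0.16 (R 4.3.3) with TMM factors, quasi-likelihood F tests on genotype and sex or on the 4 groups, and Benjamini-Hochberg adjustment over all genes tested, after tests on simulated data. Thresholds of the study were an unadjusted p of 0.05 and a fold change of 1.5. DESeq2 1.42.0, limma-voom (limma 3.58.1), other scalings and filters, and each mouse left out served as alternatives, and a GC correction was added after seeing the data. SE is the log2 fold change over the root of F, and intervals use 95% t quantiles. RPKM used the union of GENCODE M21 exons within the RefSeq gene. P-values measure the spread between single mice.

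The 31 genes and the other lists were chosen with earlier results of these data known. The text names all 31, Nell1, at most 4 genes per other list (smallest unadjusted p under 0.05 first) and the 10 genes most like the mean of the 31. Itgb2, Fn1, Lck, Ly6g and Ms4a1 are named besides, and 1 gene that the rule names is not reported here.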

Additional observations from a re-analysis of the deposited data

Results flagged for a closer look

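In 62 sets of 6 mice of one genotype (31 genes in each of the 2 genotypes), Dixon's criterion on log2 CPM, which chance meets in about 1 of 20 sets, picked out 3 values, from 2 mice, that stood apart from the other 5. Olfml3 was at 30.1 CPM in female Nell-1+/6R replicate 2, against 15.9 to 19.9 CPM in the other 5 Nell-1+/6R mice. Trem2 was at 14.2 CPM in the same mouse, against 10.8 to 11.5 CPM, and this mouse also had the highest mean of the 31 genes. C1qb was at 11.9 CPM in female WT replicate 2, against 8.44 to 9.18 CPM in the other 5 WT mice. No member had effects of genotype in opposite directions in every female and every male.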

How the results depend on the processing

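Under every alternative, 0 of the 31 genes passed an adjusted p of 0.05 or the study's thresholds in any comparison, and the median log2 fold change for genotype stayed between -0.05 and 0.01 without single mice. The counts at an unadjusted p under 0.05 depended on single mice and, for sex, on scaling and filter (3 genes with upper-quartile factors or no filter, Olfml3 being added): without 1 mouse they ranged from 0 to 1 for genotype, 0 to 2 in females, 0 to 1 in males, 0 to 3 for the difference between the sexes and 1 to 6 for sex. Shares of all genes in the fits without 1 mouse are not given here. Neither these counts nor those of the other lists without single mice therefore have a background. The median fold change without 1 mouse ranged from -0.04 to 0.09 in females, and from 0.01 to 0.17 for the difference between the sexes. The median pairwise correlation ranged from 0.13 to 0.25 and was 0.16 with GC-corrected values. For the difference between the sexes GC-corrected offsets gave 1 gene (Fcgr3), and for sex the WT mice alone gave 1.

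Fits with the replicate number as a block gave 2 genes for the difference between the sexes, C1qc at 0.40 (unadjusted p 0.0381) and Fcgr3 at 0.45 (0.0365), 0 for genotype, in females and in males, and 3 for sex, with Fcer1g at 0.27 (0.0404) added. The numbers were not taken as pairs: over 18 same-numbered pairs between the 4 groups r was -0.54 to 0.66, and 6 of 18 mice correlated best with their own number. All 3 pairs were above 0.1 between female and male Nell-1+/6R mice (0.18, 0.28 and 0.66), as in no other combination. The cause of these changes was not tested. Genes with fewest reads, such as Ptprc with 18 to 42, limit what could be seen, and intervals lay within 1.5-fold for 29 of 31 genes for genotype, 25 in females, 23 in males, 14 for the difference between the sexes and 28 for sex.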
